A study of Homo sapiens with 8 samples.

Results

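The genes described here take part in the pH regulation of the cell: carbonic anhydrases, bicarbonate transporters, lactate transporters and the chaperone of the lactate transporters. The list named 8 genes, and every probe set that the platform annotation assigns to exactly 1 of these gene symbols was taken. This gave 18 probe sets of 5 genes, out of 54675 probe sets on the array: 7 for CA12, 5 for SLC4A4, 4 for SLC4A7, 1 for CA2 and 1 for BSG. The other 3 genes, CA9, SLC16A1 and SLC16A3, are not analysed here. The 5 measured genes thus hold no lactate transporter, only the chaperone BSG. Genes related to the lactate transporters are part of a wider list.

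DKS-5 and DKO-3 are lines of colon cancer cells, and their RNA was measured on Affymetrix HG-U133 Plus 2.0 arrays, which carry several short probes for each transcript. According to the labels DKS-5 carries mutant K-ras, whereas in DKO-3 K-ras is wild-type. Cells of either line were held at 21% O2 (normoxia) or kept for 12 h at 1% O2 (hypoxia), and each of these 4 groups has 2 arrays. Each genotype is represented by 1 cell line, so a difference between genotypes and a difference between lines cannot be told apart. No source used here tells whether replicate arrays hold RNA of separate cultures, so every p-value rests on a spread between samples that may be only technical. In bulk RNA, fewer cells that express a gene and less of its RNA per cell cannot be told apart either.

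Cells that rely on glycolysis, as cells short of oxygen do, export lactate together with protons and must still hold their internal pH steady. Carbonic anhydrases interconvert carbon dioxide and bicarbonate, sodium-bicarbonate cotransporters carry bicarbonate across the membrane, and monocarboxylate transporters carry lactate with a proton. Some of these genes are known targets of the hypoxia-inducible factors, which bind a short core motif, ACGTG or GCGTG, in DNA.

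To show where such letters stand near the measured genes, the 250 bases before each RefSeq gene start (GRCh38.p14) were searched on both strands for ACGTG and GCGTG, and for the palindrome CACGTG, which holds ACGTG on both strands. CA2 was left out of this search. For the other 4 of the 5 genes 10 windows were searched: 1 for CA12, 5 for SLC4A4, 2 for SLC4A7 and 2 for BSG. The 3 windows that held a motif are printed 5′ to 3′ on the strand of the gene, with the motif in capitals (CACGC is GCGTG read on the other strand).
BSG, chr19:572346-572595, + strand: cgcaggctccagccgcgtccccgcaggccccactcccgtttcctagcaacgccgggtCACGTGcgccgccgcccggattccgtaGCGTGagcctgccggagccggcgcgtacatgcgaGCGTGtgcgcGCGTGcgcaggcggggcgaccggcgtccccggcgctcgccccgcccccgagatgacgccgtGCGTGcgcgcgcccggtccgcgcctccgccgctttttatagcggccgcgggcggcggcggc
SLC4A7, chr3:27484385-27484634, - strand: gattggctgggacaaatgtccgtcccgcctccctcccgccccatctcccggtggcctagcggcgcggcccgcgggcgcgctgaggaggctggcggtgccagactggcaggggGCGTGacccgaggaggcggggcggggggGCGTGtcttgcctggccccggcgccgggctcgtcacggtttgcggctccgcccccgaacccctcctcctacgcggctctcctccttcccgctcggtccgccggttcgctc
CA12, chr15:63381847-63382096, - strand: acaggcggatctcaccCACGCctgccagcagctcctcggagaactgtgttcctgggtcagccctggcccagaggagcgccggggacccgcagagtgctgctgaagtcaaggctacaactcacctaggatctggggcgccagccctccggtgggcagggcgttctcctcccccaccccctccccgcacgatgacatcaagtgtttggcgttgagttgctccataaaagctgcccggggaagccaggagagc
The BSG window held 1 CACGTG and 4 GCGTG, the SLC4A7 window 2 GCGTG and the CA12 window 1 GCGTG. Among 35116 promoter windows of the same length, 18.5% held ACGTG on either strand, 32.2% held GCGTG and 6.34% held CACGTG. A match describes letters in a window and is no measure of binding.

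The 2% trimmed mean of the deposited signal, the average after the extremes are cut, ran from 132.5 to 201 over the 8 arrays, a 1.52-fold range, and each array was scaled to 172.1. Values were taken as log2(scaled signal + 16), so differences of dim genes are understated. A gene was represented by its brightest probe set and tested when its mean exceeded that of the dimmest 40% of probe sets, a scaled signal of 13.8. This left 12735 of 19775 genes, all 5 measured pH genes among them. The tests are limma's, two-sided, and their p-values are Benjamini-Hochberg adjusted over the 12735 genes, and a gene is said to pass at an adjusted p under 0.05. All 12 colon epithelial marker genes had a probe set and 9 were bright enough to test, with a summed signal from 18572 to 23331 per array. Of these 9, VIL1 was higher and KRT19 and KRT20 were lower in DKS-5 over both oxygen levels, 33.3% against 9.11% of all genes tested. KRT20 passed the level for testing through DKO-3. Its mean signals, normoxia before hypoxia, were 11.3 and 8.26 in DKS-5 against 444.5 and 354.0 in DKO-3. Those of VIL1 were 98.3 and 71.1 in DKS-5 against 17.5 and 13.6 in DKO-3. Of the 13 non-epithelial marker genes with a probe set, only COL1A1 and HBB were bright enough to test, and their list summed to between 68.0 and 140.5 per array, COL1A1 never above 27.1. K-ras transcript levels are not analysed here. The ratio of the 3' to the 5' control signal of ACTB, which rises as RNA is shortened or copied incompletely, was 55.1 and 34.3 at 21% O2 and 54.8 and 25.6 at 1% O2 in DKS-5, and 49.0 and 14.9 at 21% O2 and 11.47 and 11.02 at 1% O2 in DKO-3.

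**Figure D1:**
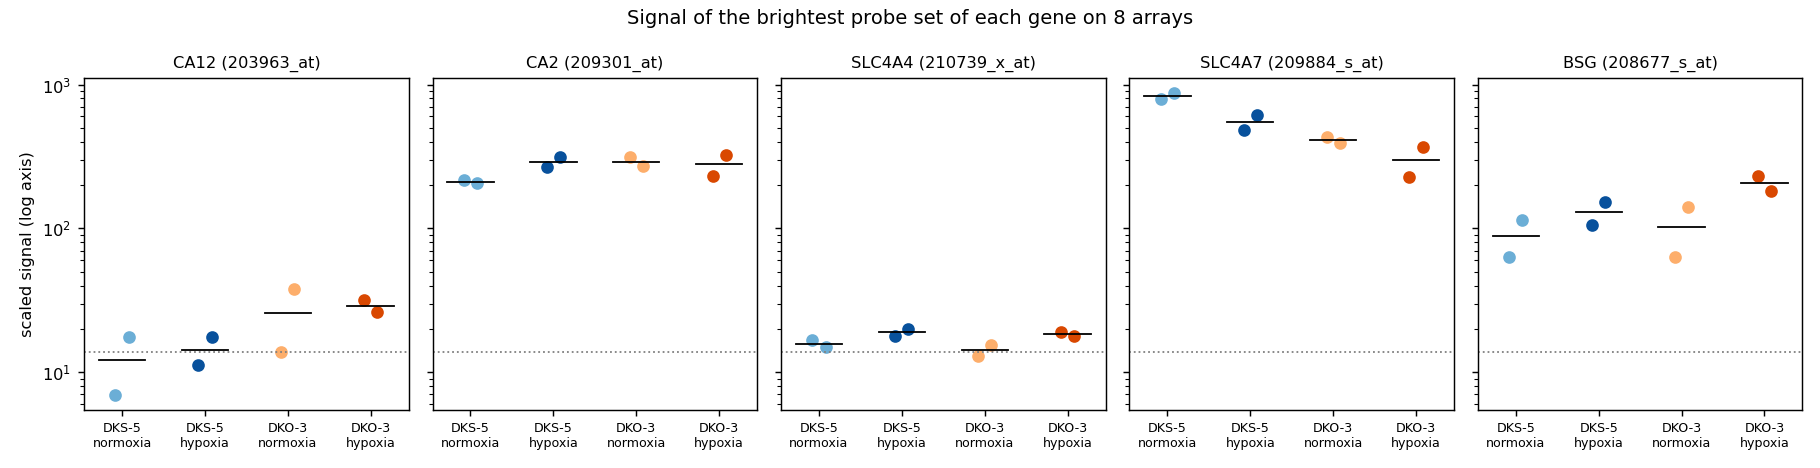
Scaled signal (log axis) of the brightest probe set of CA12, CA2, SLC4A4, SLC4A7 and BSG on the 8 arrays. Each point is an array, each bar the mean of the 2 arrays of a group, and the dotted line the signal of 13.8 below which a gene was not tested. SLC4A7 runs from 483.9 to 866.1 on the DKS-5 arrays and from 229.2 to 431.5 on the DKO-3 arrays, while CA12 and SLC4A4 lie close to the dotted line.

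The main result among the measured genes was a difference between the lines in SLC4A7, the electroneutral sodium-bicarbonate cotransporter (NBCn1) that brings bicarbonate into the cell. Its brightest probe set, 209884_s_at, gave signals of 790.9 and 866.1 at 21% O2 and 483.9 and 616.4 at 1% O2 in DKS-5, and 431.5 and 389.8 at 21% O2 and 229.2 and 370.4 at 1% O2 in DKO-3. The 4 DKS-5 arrays were all higher than the 4 DKO-3 arrays, as was the case, in either direction, for 13.9% of all genes tested. Averaged over both oxygen levels, SLC4A7 was 1.90-fold higher in DKS-5, by a log2 difference of 0.93 ± 0.18 (SE, 2 arrays a group; 95% confidence interval 0.55 to 1.30; limma adjusted p = 0.00315). Of the 5 measured genes SLC4A7 alone passed in this comparison, against 9.11% of all genes tested. It passed without each of the 8 arrays in turn, with values from 0.76 to 1.09. The value was 0.99 with the ACTB ratio as a covariate, where it missed the threshold (adjusted p = 0.0606). The ACTB ratio was higher on average in DKS-5, 25.6 to 55.1 against 11.02 to 49.0 in DKO-3. Within the groups SLC4A7 was higher on the array with the lower ACTB ratio in 3 of the 4. In DKO-3 hypoxia, 1 of these 3, the ratios of 11.47 and 11.02 were nearly equal. The same ratio of GAPDH, replicate 1 before 2, ranked the arrays the other way in DKS-5 normoxia (3.70 and 4.23) and DKO-3 hypoxia (1.53 and 1.61). The part of either ratio in the result was not tested.

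Within normoxia alone, SLC4A7 was higher in DKS-5 by 0.99 ± 0.25, from 410.7 ± 29.4 in DKO-3 to 828.5 ± 53.2 in DKS-5 (SD, n = 2; limma adjusted p = 0.0489). This was again the only 1 of the 5 genes to pass, against 2.54% of all genes. The call lay just inside the threshold and ended without any of the 4 normoxia arrays: without DKS-5 normoxia replicates 1 and 2 the adjusted p was 0.227 and 0.374, and without DKO-3 normoxia replicates 1 and 2 it was 0.176 and 0.264. It ended as well with the ACTB covariate (adjusted p = 0.0776). Within hypoxia the difference was 0.87 ± 0.25 (adjusted p = 0.0631), from 299.8 ± 99.9 in DKO-3 to 550.1 ± 93.6 in DKS-5, and none of the 5 genes passed, against 4.37% of all genes. It passed without DKS-5 hypoxia replicate 1 (1.04, adjusted p = 0.0455) and without DKO-3 hypoxia replicate 2 (1.20, adjusted p = 0.0449), but was 0.54 without DKO-3 hypoxia replicate 1 (adjusted p = 0.544).

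The line difference of SLC4A7 over both oxygen levels passed in its brightest probe set alone, although all 4 lay above the level for testing. Averaged over oxygen levels, 207604_s_at, with signals from 101.5 to 200.8, differed by 0.05 (95% confidence interval -0.32 to 0.42). The line difference was 0.33 for 210286_s_at (-0.25 to 0.91) and 0.04 for 207603_at (-0.38 to 0.46). The interval of 210286_s_at is wide and leaves room for a difference nearly as large as that of 209884_s_at. In a fit of all 54613 probe sets other than controls, 209884_s_at was the only 1 of the 18 probe sets to pass in this comparison (0.93, adjusted p = 0.0282), against 1.89% of all probe sets. With the mean of all 4 probe sets in place of the brightest, SLC4A7 differed by 0.34 (adjusted p = 0.148).

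**Figure D2:**
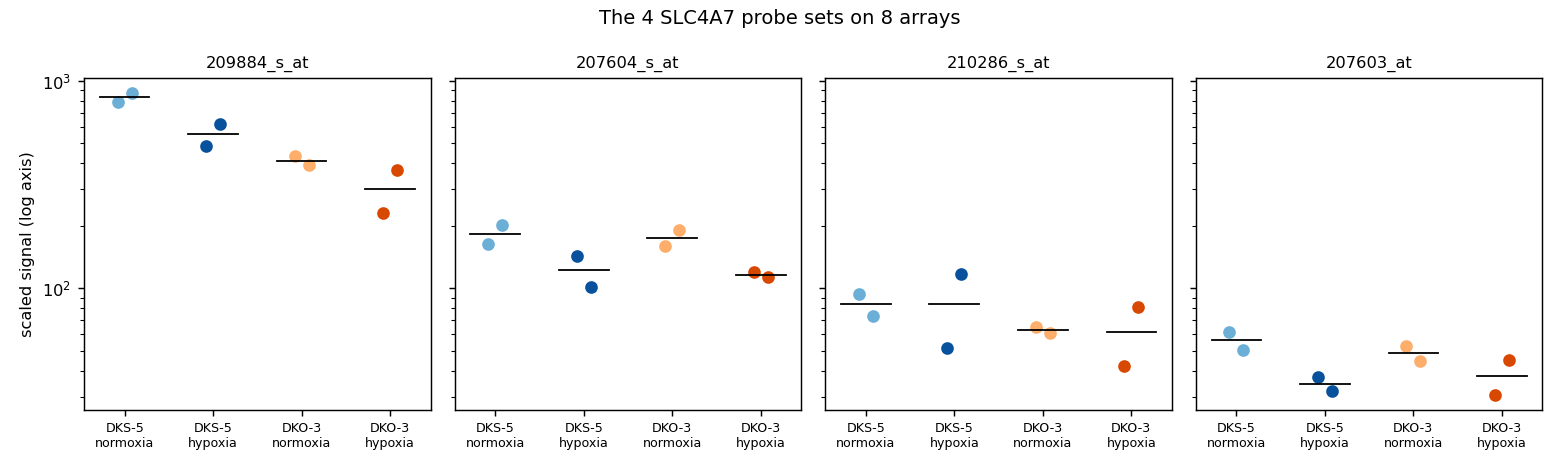
Scaled signal (log axis) of the 4 SLC4A7 probe sets on the 8 arrays, with a point per array and a bar at the mean of the 2 arrays of each group. The lines separate in 209884_s_at, while in 207604_s_at and 207603_at each oxygen level has like means in both lines. In 210286_s_at the DKS-5 means lie above those of DKO-3, 83.5 against 62.8 in normoxia and 84.2 against 61.5 in hypoxia. Its hypoxia arrays overlap between the lines.

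On its brightest probe set SLC4A7 gave lower signals in hypoxia than in normoxia in both lines, but it did not pass the test. The difference of 209884_s_at was -0.59 ± 0.25 in DKS-5 (limma adjusted p = 0.653) and -0.47 ± 0.25 in DKO-3 (adjusted p = 0.529), with arrays that did not overlap in either line. The DKO-3 value was -0.14 without DKO-3 hypoxia replicate 1 and -0.80 without replicate 2. Arrays of the 2 oxygen levels did not overlap, in either direction, for 35.5% (DKS-5) and 42.1% (DKO-3) of all genes. The mean over both lines was -0.53 ± 0.18 (95% confidence interval -0.90 to -0.15, limma adjusted p = 0.192). Among the other probe sets, 207604_s_at stood at -0.53 in DKS-5 and -0.53 in DKO-3, with signals of 163.5 and 200.8 against 142.1 and 101.5, and of 160.2 and 189.8 against 119.1 and 113.2. The differences of 207603_at were -0.51 and -0.27 and those of 210286_s_at were -0.06 and -0.07. All 8 values were below 0 and none of them passed. They come from 4 probe sets of 1 gene on the same arrays and are not separate readings. In DKS-5 the mean signal of 210286_s_at was 83.5 in normoxia and 84.2 in hypoxia. Between the lines the hypoxia difference of 209884_s_at differed by -0.12 (-0.87 to 0.63), an interval that leaves room for a sizeable difference in either direction.

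In the order of its levels on 209884_s_at SLC4A7 therefore ran from DKS-5 normoxia through DKS-5 hypoxia and DKO-3 normoxia to DKO-3 hypoxia. The neighbours in that order were at most 1.50-fold apart within a line, differences that did not pass. The gap between DKS-5 hypoxia and DKO-3 normoxia, 550.1 ± 93.6 against 410.7 ± 29.4, crosses line and oxygen level together and was not tested. Other probe sets had another order. DKS-5 hypoxia lay below DKO-3 normoxia in 207604_s_at (121.8 against 175.0) and 207603_at (34.5 against 48.5), and above it in 210286_s_at (84.2 against 62.8).

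The other sodium-bicarbonate cotransporter, SLC4A4 (NBCe1), an electrogenic transporter prominent in kidney, pancreas and gut, was dim. Only 1 of its 5 probe sets, 210739_x_at, lay above 13.8 on average. It gave 16.6 and 14.9 at 21% O2 and 17.9 and 19.8 at 1% O2 in DKS-5, and 13.0 and 15.4 at 21% O2 and 19.0 and 17.9 at 1% O2 in DKO-3. The hypoxia arrays were slightly above the normoxia arrays in each line, with differences of 0.14 (95% confidence interval -0.36 to 0.63, limma adjusted p = 0.948) and 0.19 (-0.30 to 0.68, adjusted p = 0.823), and neither passed. Such a lack of overlap, in either direction, was seen for 35.5% (DKS-5) and 42.1% (DKO-3) of all genes. Between the lines it differed by 0.05 (-0.30 to 0.40). The remaining 4 probe sets ran from 0.443 to 19.7 and differed in sign among themselves. At signals this low the pseudocount of 16 is about as large as the signal, so these intervals bound only a damped difference.

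**Figure D3:**
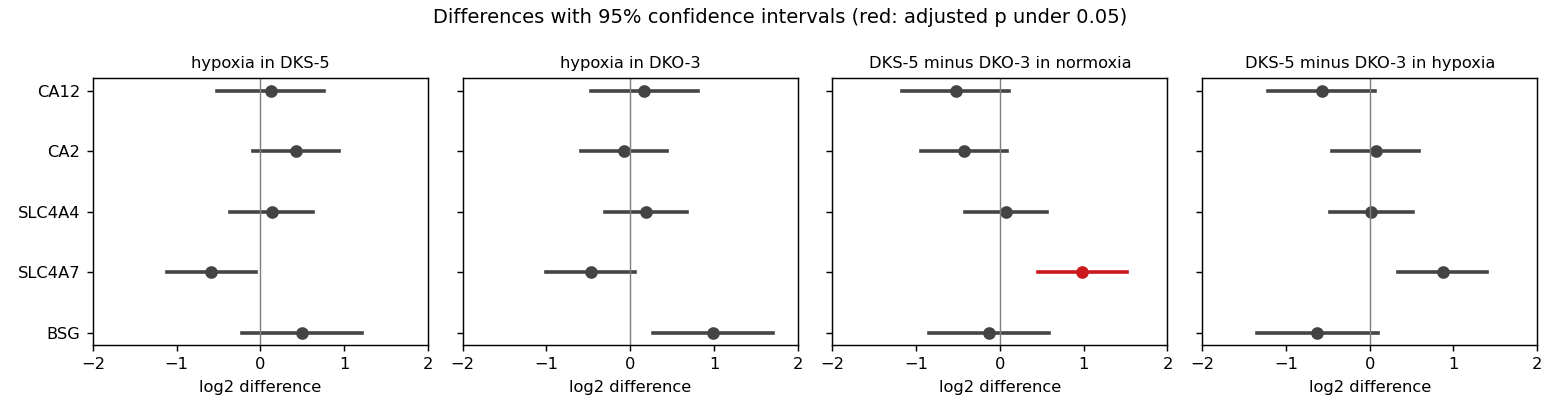
Log2 differences of the 5 measured genes, with 95% confidence intervals that are not adjusted for the number of genes, for hypoxia against normoxia in each line and for DKS-5 against DKO-3 at each oxygen level. The red point, SLC4A7 in normoxia at 0.99, is the only 1 of the 20 values shown that passed; BSG in DKO-3 hypoxia also stands at 0.99, with a wider interval.

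BSG encodes basigin (CD147), the membrane glycoprotein that escorts the lactate transporters MCT1 and MCT4 to the cell surface. Its single probe set, 208677_s_at, gave signals of 63.5 and 114.4 at 21% O2 and 105.6 and 153.1 at 1% O2 in DKS-5, and 62.9 and 141.6 at 21% O2 and 232.3 and 181.0 at 1% O2 in DKO-3. The DKO-3 hypoxia arrays were the highest. Arrays of both oxygen levels overlapped in DKS-5 but not in DKO-3, where those of 42.1% of all genes, in either direction, did not overlap. In DKO-3 the hypoxia difference was 0.99 ± 0.34 (95% confidence interval 0.27 to 1.71; limma adjusted p = 0.331), and it was 0.49 without DKO-3 normoxia replicate 1 and 1.49 without replicate 2. In DKS-5 it was 0.49 ± 0.34 (-0.22 to 1.21, adjusted p = 0.844), and the lines' differences themselves differed by -0.49 (-1.51 to 0.52). Over both lines the mean was 0.74 ± 0.24 (adjusted p = 0.177).

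BSG signals were also set beside the ACTB ratio. In 3 of the 4 groups, all but DKO-3 hypoxia, BSG was higher on the array with the lower ratio. The 2 DKO-3 hypoxia arrays had the lowest ratios of all. With that ratio as a covariate the DKO-3 difference of BSG was 0.25 in place of 0.99. The part of the ratio in the result was not tested. Between the lines BSG stood at -0.13 in normoxia (-0.85 to 0.59) and -0.63 in hypoxia (-1.34 to 0.09), and neither passed. The latter was 0.39 with the covariate and passed only where arrays were not scaled (-1.03, adjusted p = 0.0438).

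**Figure D4:**
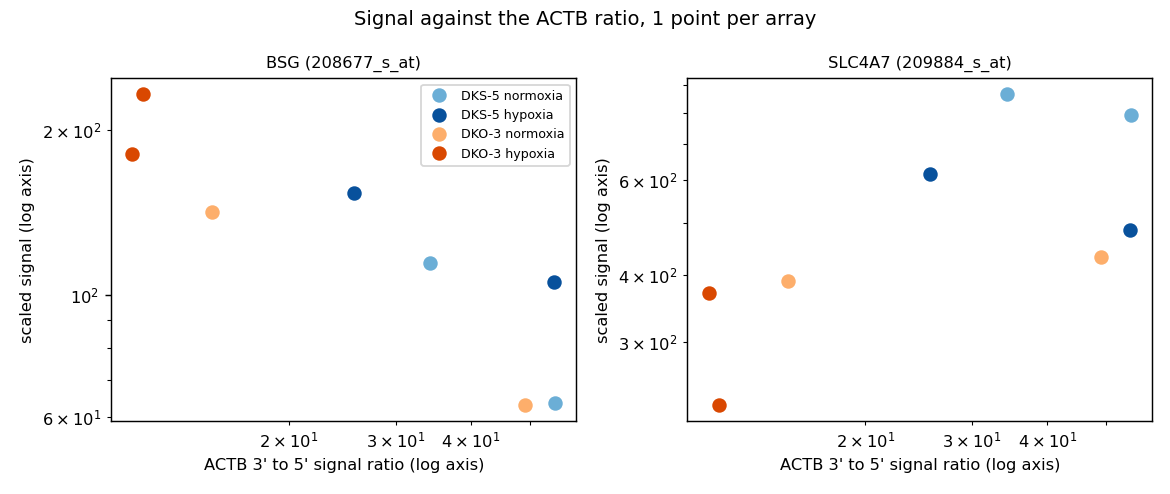
Scaled signal of BSG and of SLC4A7 (209884_s_at) against the ACTB 3' to 5' signal ratio, both on log axes, with 1 point per array and a colour per group. BSG runs from 63 to 232 and is highest where the ratio is near 11; for SLC4A7 all DKS-5 arrays lie above all DKO-3 arrays.

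CA2 encodes the abundant cytosolic carbonic anhydrase. Its probe set, 209301_at, gave 216.6 and 206.3 at 21% O2 and 264.9 and 315.7 at 1% O2 in DKS-5, and 311.3 and 269.8 at 21% O2 and 232.7 and 323.4 at 1% O2 in DKO-3. DKS-5 normoxia was the lowest group, and the other 3 overlapped. Arrays of the oxygen levels did not overlap in DKS-5, as was the case, in either direction, for 35.5% of all genes tested. The hypoxia difference was 0.42 ± 0.24 in DKS-5 (95% confidence interval -0.09 to 0.94, limma adjusted p = 0.796) and -0.07 in DKO-3 (-0.59 to 0.44). The lines differed by -0.43 in normoxia (-0.95 to 0.09) and 0.07 in hypoxia (-0.45 to 0.59). None of these differences passed, and the difference between the lines' hypoxia values, 0.50 (-0.23 to 1.23), did not either.

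CA12 encodes a membrane-bound carbonic anhydrase whose active site faces outward, and it is known as a gene raised by hypoxia in several tumours. Only 203963_at of its 7 probe sets lay above the level for testing. It gave 6.98 and 17.5 at 21% O2 and 11.2 and 17.6 at 1% O2 in DKS-5, and 13.7 and 37.8 at 21% O2 and 31.8 and 26.4 at 1% O2 in DKO-3. The DKO-3 normoxia arrays enclosed both DKO-3 hypoxia arrays, and the oxygen levels overlapped in DKS-5 too. The probe set passed the level for testing through DKO-3. Its mean signals in DKS-5 were 12.2 in normoxia, below that level, and 14.4 in hypoxia, against 25.8 and 29.1 in DKO-3. The line difference was thus tested on a probe set that the brighter line let in. The hypoxia differences were 0.12 in DKS-5 (95% confidence interval -0.52 to 0.76) and 0.17 in DKO-3 (-0.47 to 0.81). Between the lines CA12 stood at -0.53 in normoxia and -0.57 in hypoxia, and their mean was -0.55 ± 0.21 (-1.004 to -0.10, limma adjusted p = 0.132). This mean passed without DKO-3 normoxia replicate 1 (-0.77, adjusted p = 0.0441) and was 0.01 with the ACTB covariate. CA12, like BSG, was higher on the array with the lower ACTB ratio in 3 of the 4 groups, and the part of that ratio in the result was not tested. The other 6 probe sets ran from 0.712 to 23.7. Over the 7 probe sets the hypoxia difference ranged from -0.14 to 0.73 in DKS-5, while in DKO-3 the range was -0.28 to 0.63. The line difference averaged over oxygen levels ranged from -0.55 to 0.26, so the probe sets differed in sign between the lines.

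In hypoxia, then, none of the 5 measured genes passed in DKS-5, in DKO-3 or in the mean of the lines, where 0.503%, 0.346% and 1.19% of all genes did. These shares moved with single arrays. In DKO-3 the 44 genes became 1 when hypoxia replicate 1 of that line was left out. Leaving out hypoxia replicate 1 of DKS-5 turned its 64 genes into 294 and the 152 of the mean into 760. The median difference of the 5 measured genes was 0.14 in DKS-5 and 0.17 in DKO-3, beside 0.02 and 0.04 for all genes tested. At an unadjusted p under 0.05 limma gave 1 of the 5 in DKS-5 (SLC4A7) and 1 in DKO-3 (BSG), against 6.93% and 10.5% of all genes. The hypoxia responses of the lines did not differ past the threshold for any gene on the array (0% of genes).

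The wider set of pH genes comprised 6 lists with 86 genes, of which 72 had a probe set and 42 were bright enough to test. In hypoxia 0 of the 42 passed in either line or in the mean of the lines, and their medians were 0.08 (DKS-5) and 0.05 (DKO-3); at an unadjusted p under 0.05 limma gave 4 and 5. The differences between the lines were more frequent. Averaged over oxygen levels 9 of 42 genes passed, 21.4%, with 2 higher and 7 lower in DKS-5, against 9.11% of all genes tested, of which 2.98% were higher and 6.13% lower. The median of the 42 was -0.05, beside -0.01 for all genes tested, and the values ran from -1.13 to 0.79. These lists were chosen with earlier results of the same arrays known.

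**Figure D5:**
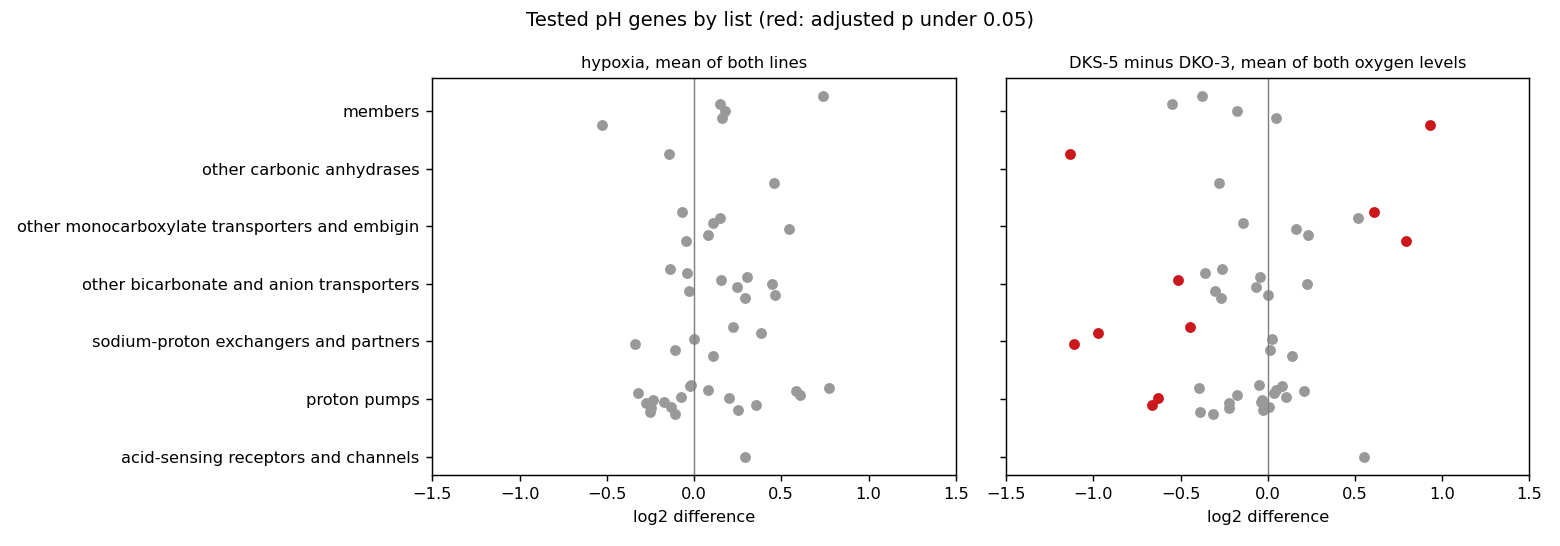
Log2 differences of the tested genes of each list, 1 point per gene, for hypoxia averaged over both lines and for DKS-5 minus DKO-3 averaged over both oxygen levels; red points passed at an adjusted p under 0.05. No point is red for hypoxia, and 1 of the 5 genes named above and 9 of the 42 others are red between the lines.

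Of 12 other carbonic anhydrases 2 were tested and 1 passed over both oxygen levels, beside 9.11% of all genes tested. This was CA13, a cytosolic carbonic anhydrase. It gave 440.6 and 271.0 at 21% O2 and 332.6 and 329.4 at 1% O2 in DKS-5, and 1156 and 585.4 at 21% O2 and 588.4 and 842.5 at 1% O2 in DKO-3. All DKS-5 arrays were below all DKO-3 arrays, where 13.9% of all genes tested, in either direction, did not overlap. The CA13 difference over both oxygen levels was -1.13 ± 0.22 (limma adjusted p = 0.00348), or 2.19-fold lower in DKS-5. It passed without each array in turn and in every other setting run, with values from -1.68 to -0.82. A dimmer CA13 probe set gave -0.52.

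Among the other monocarboxylate transporters and embigin, 6 of 13 genes were tested and 2 passed over both oxygen levels, both higher in DKS-5. Of all genes tested 9.11% passed there, 2.98% of them higher and 6.13% lower, as shares of all genes. SLC16A9, a transporter linked to carnitine, gave 130.3, 152.9, 138.2 and 142.1 in DKS-5 and 56.4, 103.5, 70.2 and 73.8 in DKO-3, normoxia before hypoxia, a difference of 0.79 ± 0.19 (limma adjusted p = 0.0158). SLC16A10, the aromatic amino acid transporter TAT1, differed by 0.61 ± 0.17 (adjusted p = 0.0385), and its 2 dimmer probe sets by 0.97 and 1.29. As background, neither protein is known mainly as a lactate transporter. SLC16A9 did not pass without DKS-5 normoxia replicate 2 or replicate 1 of either DKO-3 group (adjusted p up to 0.0753). SLC16A10 passed only without DKS-5 hypoxia replicate 2 when single arrays were left out (adjusted p from 0.0258 to 0.150 over the 8).

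Of the sodium-proton exchangers and their partners, 6 were tested and 3 were lower in DKS-5 over both oxygen levels, beside 6.13% of all genes tested. NHERF1, the scaffold protein that anchors exchangers and other membrane proteins at the apical surface, gave 205.1, 190.5, 211.6 and 271.2 in DKS-5 and 379.3, 358.1, 620.8 and 456.2 in DKO-3, normoxia before hypoxia. Its difference over both oxygen levels was -0.97 ± 0.17 (limma adjusted p = 0.00168), and it passed without each of the 8 arrays. With the ACTB covariate it did not pass (adjusted p = 0.0612). NHERF1 also passed within hypoxia (-1.10, adjusted p = 0.0171), a call that ended without DKS-5 hypoxia replicate 1 or DKO-3 hypoxia replicate 1 (adjusted p up to 0.241). SLC9A2, the exchanger NHE2 of epithelia, stood at -1.11 over both levels (adjusted p = 0.0113) and -1.46 in hypoxia (adjusted p = 0.0324), with 66.6 and 34.7 against 255.3 and 100.4 there. Both SLC9A2 calls ended without DKO-3 hypoxia replicate 1. The call over both levels ended also without DKO-3 normoxia replicate 2 and the hypoxia call without DKS-5 hypoxia replicate 2, with adjusted p up to 0.0746 and 0.426. The hypoxia value ran from -2.07 to -0.85 without single arrays, and with the mean of the gene's probe sets the value over both levels was -0.48 (adjusted p = 0.151). A dimmer probe set of the gene gave 0.15. CHP1, a calcium-binding cofactor of the exchangers, was at -0.44 ± 0.13 (adjusted p = 0.0413) and its dimmer probe set at -1.04; its call ended without any array but DKS-5 hypoxia replicate 1 (adjusted p up to 0.189).

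Among 18 tested proton pump subunits 2 were lower in DKS-5 over both oxygen levels, 11.1% against 9.11% of all genes. ATP6V1C2, a C subunit isoform of the vacuolar proton pump, gave 247.1 and 215.2 in DKS-5 normoxia against 449.6 and 515.0 in DKO-3 normoxia, a difference of -1.01 ± 0.24 (limma adjusted p = 0.0336). Over both oxygen levels it stood at -0.66 (adjusted p = 0.0207), with arrays of the lines overlapping in hypoxia. The normoxia call ended without any of the 4 normoxia arrays (adjusted p up to 0.333). ATP6V0E2, a small subunit of the membrane sector, was at -0.63 over both levels (adjusted p = 0.0209) and at -0.84 in hypoxia (adjusted p = 0.0470), the latter ending without any 1 of the 8 arrays (adjusted p from 0.0517 to 0.246). Over both oxygen levels the calls of these subunits each ended without 5 of the 8 arrays; the 2 DKS-5 normoxia arrays, the second DKO-3 normoxia array and the first DKO-3 hypoxia array were among these for both genes (adjusted p up to 0.116 and 0.122).

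Of 9 tested bicarbonate and anion transporters other than SLC4A4 and SLC4A7, only SLC4A11 passed, 11.1% over both oxygen levels against 9.11% of all genes tested. This borate-transporter relative, which conducts protons or hydroxide, gave 342.6 and 361.1 in DKS-5 normoxia against 759.6 and 601.4 in DKO-3 normoxia, -0.91 ± 0.22 (limma adjusted p = 0.0346). Over both oxygen levels it was at -0.51 (adjusted p = 0.0486). Within hypoxia it was only at -0.11 ± 0.22 (limma adjusted p = 0.841), so the value over both levels came mostly from normoxia. A dimmer SLC4A11 probe set gave -0.17 over both levels and did not pass. The normoxia call was kept without either of the DKS-5 hypoxia arrays and ended without any other single array (adjusted p up to 0.293), and the call over both levels was kept only without DKS-5 hypoxia replicate 2 (adjusted p up to 0.185). The 1 tested acid-sensing gene did not pass. In all, 2 of the 42 genes passed in normoxia alone (SLC4A11 and ATP6V1C2, 4.76%, against 2.54% of all genes and 1.84% in that direction), and 3 in hypoxia alone (SLC9A2, NHERF1 and ATP6V0E2, 7.14%, against 4.37% and 2.98%), each lower in DKS-5.

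The genes whose log2 values over the 8 arrays were most like those of SLC4A7, among the 12734 others tested, were RPL7L1, a ribosomal protein relative (Pearson's r = 0.979), the growth factor gene FGF2 (r = 0.975) and TADA2A, a subunit of histone acetyltransferase complexes (r = 0.972). FGF2 gave 101.4 and 83.8 at 21% O2 and 45.9 and 60.7 at 1% O2 in DKS-5, and 36.2 and 20.5 at 21% O2 and 10.5 and 24.8 at 1% O2 in DKO-3. These values share the arrays and their scaling, and they were picked as the highest of many, so they describe these 8 arrays only.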

How the data were processed

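The authors deposited linear probe set intensities. The submitters' processing notes name MAS5 as the tool. Its version, its target intensity and a genome build are not given in the sources used here. No detection call was used. Of the 54675 probe sets, 62 controls were left out, 41091 had 1 gene symbol in the platform annotation, 1801 several genes and 11721 none, and 41037 of the first matched RefSeq (GRCh38.p14). Arrays whose 2% trimmed means (controls left out) differed by over 10% were scaled to their median, 172.1. The choice to leave controls out of that mean was made after a first run; it changed no call of the genes described.

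Differences of log2(signal + 16) were tested in R 4.3.3 with limma 3.58.1. All 8 arrays entered 1 lmFit model with a mean for each group, and 7 contrasts went through eBayes (trended) and Benjamini-Hochberg adjustment, where the residual degrees of freedom were 4 and the prior ones 11.3. Named genes were all 8 listed genes, every gene of the 6 wider pH lists that passed in any comparison, and the 3 genes most like each listed gene that passed. These members, lists and rules were chosen with earlier results of these data known. Alternatives covered the pseudocount, filter, scaling, probe set rule, RNA quality covariate, replicate block and each array left out. The number of arrays limits the precision.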

Additional observations from a re-analysis of the deposited data

Results flagged for a closer look

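On its brightest probe set SLC16A10 had hypoxia values of opposite signs in the lines on every array. DKS-5 gave 155.0 and 154.4 in normoxia against 137.4 and 104.6 in hypoxia, and DKO-3 80.8 and 74.7 against 83.3 and 98.7. The difference between responses, -0.51 (-0.515), did not pass limma's test (adjusted p = 0.9995). The gene's other probe sets gave 0.10 and 0.38 for that difference. The first of these was lower in hypoxia in both lines (-0.49 in DKS-5, -0.59 in DKO-3). The second had the signs reversed (0.23 in DKS-5, -0.15 in DKO-3). The share of all genes with such opposite signs was not counted. The hypoxia values of SLC4A11 on its brightest probe set were higher in DKS-5 and lower in DKO-3. Normoxia against hypoxia gave 342.6 and 361.1 against 495.9 and 555.9 in DKS-5, and 759.6 and 601.4 against 566.8 and 570.9 in DKO-3. The difference between responses, 0.80 (0.7999), did not pass limma's test either (adjusted p = 0.9995). The gene's dimmer probe set gave 0.20 and was lower in hypoxia in both lines (-0.51 in DKS-5, -0.71 in DKO-3).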

How the results depend on the processing

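The numbers of the 5 measured genes past the threshold in hypoxia (DKS-5, DKO-3, the mean of the lines) and in the difference between responses were 0 in every setting run, while calls between the lines moved. In normoxia the 1 call (SLC4A7) became 0 with a pseudocount of 1 (adjusted p = 0.0615), without the filter (0.126), without array scaling (0.099), with quantile normalization (0.0644), with the mean of all probe sets (0.465) and with the RNA quality covariate (0.0776), and 0 to 1 without single arrays; it held with a pseudocount of 64 and when only the arrays compared were fitted. In hypoxia the 0 calls became 1 without array scaling (BSG) and 0 to 1 without single arrays. Over both oxygen levels the 1 call became 2 without array scaling (CA12 and SLC4A7), 0 with the mean of all probe sets, which leaves 3 genes tested, 0 with the covariate, and 1 to 2 without single arrays.

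Same-numbered arrays of different groups had deviations that correlated from -0.09 to 0.33 over 6 pairs of groups, so the numbers were not taken as pairs. With the replicate block the hypoxia count between the lines became 1 (SLC4A7, adjusted p = 0.0329), the other counts of the 5 genes were as before, and over all genes hypoxia calls rose from 44 to 92 in DKO-3 and from 152 to 325 in the mean.

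Among values that did not pass, signs turned with the covariate for CA12 (DKO-3 hypoxia -0.42, response difference 0.45, lines in hypoxia 0.24, mean hypoxia -0.20, mean line difference 0.015) and BSG (0.12 for the response difference, and 0.27, 0.39 and 0.33 for the lines in normoxia, hypoxia and the mean). They turned without array scaling for CA2 (0.11 in DKO-3 hypoxia, -0.36 between the lines in hypoxia) and SLC4A4 (-0.22 between the lines in hypoxia, -0.075 in the mean), and with quantile normalization for the response difference of CA12 (0.022). Without single arrays CA12 ran from -0.15 to 0.395 in DKS-5 hypoxia, -0.26 to 0.60 in DKO-3 hypoxia, -0.068 to 0.36 in mean hypoxia and -0.47 to 0.38 for the response difference; CA2 from -0.30 to 0.15 in DKO-3 hypoxia and -0.15 to 0.30 between the lines in hypoxia. SLC4A4 ran from -0.11 to 0.0023 for the response difference and -0.0196 to 0.0579 between the lines in hypoxia, the response difference of SLC4A7 from -0.44 to 0.21, that of BSG from -0.99 to 0.0053, and BSG between the lines in normoxia from -0.63 to 0.37.

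Of the 42 other pH genes, for which these settings were added after the data were seen, the 2 calls in normoxia became 0 without the filter, 0 without scaling, 4 when only the arrays compared were fitted, 1 with the covariate and 0 to 3 without single arrays. The 3 in hypoxia became 1, 9 without scaling, 1 with the covariate and 0 to 3 without single arrays, and the 9 over both levels became 4, 3 with the covariate and 2 to 9. The 0 of mean hypoxia became 3 without DKS-5 hypoxia replicate 1: the pump subunits ATP6V0A1, ATP6V0B and ATP6V0D1, named after their values were seen. Without scaling the median of all genes was -0.419 in place of -0.034 between the lines in hypoxia, -0.206 in place of -0.0112 in their mean, -0.407 in place of -0.0164 for the response difference, and -0.195 and 0.202 in place of 0.0223 and 0.0355 for hypoxia in DKS-5 and DKO-3, and the calls between the lines went from 177 higher and 380 lower to 63 and 2320 in hypoxia, and from 379 and 781 to 137 and 1637 in the mean. Over all genes the covariate gave 128 calls between the lines in hypoxia in place of 557, 443 in place of 1160 in the mean and 14 in place of 44 in DKO-3 hypoxia. The filter's removal gave 144 in place of 324 in normoxia, 217 in place of 557 in hypoxia, and 35, 7 and 70 in DKS-5, DKO-3 and mean hypoxia. The causes were not tested.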
